A study of Mus musculus with 9 samples.

Results

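Of the 200 tRNA fragments in the table, 8 were named as long 5′ fragments of alanine tRNAs, the pieces that begin at the first base of the mature tRNA and end near the anticodon. The members were every fragment with a nuclear alanine tRNA in its name and the class tRF-5c or tiRNA-5. The class tRF-5c holds the longest fragments of the tRF-5 classes. The tiRNA-5 member here, of 34 nt, was longer and reached the first base of the anticodon. Of the 8, 7 were tRF-5c and 1 was tiRNA-5. All 8 carried the anticodon CGC in their name, so no second anticodon could be compared. They came from 2 parents: 4 fragments of 29, 30, 31 and 32 nt were from Ala-CGC-2, and 4 of 30, 31, 32 and 34 nt were from Ala-CGC-5. A further 9 nuclear alanine fragments were short 5′ or 3′ pieces, 94 nuclear long 5′ fragments belonged to other amino acids, and 0 mitochondrial alanine fragments were listed.

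Small RNA was sequenced from complexes of retinal pigment epithelium, choroid and sclera, the layers behind the retina, of C57BL/6 mice. The 3 control complexes came from mice that received no treatment. Laser burns in eyes of mice 6 to 8 weeks old broke Bruch's membrane, which models choroidal neovascularization, and 3 complexes were taken at day 3 and 3 at day 7 after laser. Per the labels the lasered mice were anaesthetised and their pupils dilated, and the age of the controls is not given separately. A complex holds pigment, vascular, connective and, after laser, infiltrating cells, and the table lists no mRNA, so its tissue markers could not be checked. In such bulk samples, fewer cells of a type and less RNA per cell cannot be told apart.

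Transfer RNAs carry amino acids to the ribosome and are cut under stress, often in or beside the anticodon loop, by nucleases such as angiogenin. The 5′ pieces of several tRNAs accumulate in stressed cells, and 5′ pieces of alanine tRNA that begin with a run of guanines are known from work in human cells to fold into G-quadruplexes and to inhibit translation. Alanine tRNAs are recognised by alanyl-tRNA synthetase chiefly through a G-U wobble pair, the third pair of the acceptor stem, and not through the anticodon.

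The parent sequences, read from the alignment column of the deposited table with the mature CCA end, show the anticodon that the parents share and how far they differ elsewhere. The capitals mark the anticodon.
Ala-CGC-2 parent: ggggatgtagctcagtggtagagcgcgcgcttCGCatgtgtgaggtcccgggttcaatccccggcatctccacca
Ala-CGC-5 parent: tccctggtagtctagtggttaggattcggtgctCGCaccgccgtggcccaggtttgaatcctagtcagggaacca
The anticodon began at base 33 of Ala-CGC-2 and at base 34 of Ala-CGC-5. The parents differed from each other at 46 of 75 positions. The table's alignments named 16 alanine tRNA genes. Apart from Ala-CGC-5, all 15 began with GGGG and had G and T (U in the RNA) as the third acceptor pair. Ala-CGC-5 began with TCCC and had C and G there. It differed from the parents of glutamate fragments Glu-CTC-2 and Glu-TTC-3 at 11 of 75 positions each, an identity of 85.3%. The data therefore go against the alanine label for 4 of the 8 fragments in all but the anticodon, and these are called here by their parent name, Ala-CGC-5. RefSeq (GRCm38.p6) lists 9 mouse alanine tRNA genes with anticodon CGC, 1 on chromosome 2, 1 on chromosome 4, 2 on chromosome 13 and 5 on chromosome X; which of them, if any, is either parent was not determined.

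The most abundant fragment of each parent is shown next, then the 32 nt Ala-CGC-5 fragment, which had the smallest p of the 8 at day 3, for comparison with the 32 nt fragments of the close glutamate relatives. In the Ala-CGC-2 fragment the capitals mark the guanine run at the 5′ end. In the others they mark the bases at which Ala-CGC-5 and a glutamate relative differ.
tRF-1:31-Ala-CGC-2: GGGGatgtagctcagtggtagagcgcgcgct
tRF-1:30-Ala-CGC-5: tccctggtAgtctagtggTtaggattCggT
tRF-1:32-Ala-CGC-5: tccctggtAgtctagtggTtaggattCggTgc
tRF-1:32-Glu-CTC-2: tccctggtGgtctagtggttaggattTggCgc
tRF-1:32-Glu-TTC-3: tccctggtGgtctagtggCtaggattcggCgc
Counted from 1 at the 5′ end, with the Ala-CGC-5 base first, the differences were A9G, C27T and T30C for Glu-CTC-2, and A9G, T19C and T30C for Glu-TTC-3. Each of the 8 fragments matched 1 gene in the alignment column, whereas 74 of the 200 listed fragments matched several. Ala-CGC-5 and each relative differ at 3 of the first 32 bases, and the share of base errors or modified bases in these reads was not tested. The table cannot tell whether reads counted as Ala-CGC-5 came from that gene or were misread or modified glutamate tRNA, and this holds for each Ala-CGC-5 level, ratio and end position given here. The GGGG start was shared by 9 of the 200 fragments (4.50%), 4 of them the Ala-CGC-2 fragments, and the TCCC start by 31 (15.5%). Ala-CGC-2 was identical to 5 other alanine genes over bases 1 to 26 and to 0 over bases 1 to 27. One of those 5, Ala-CGC-1, differed within the first 32 bases by G27A and C28T (Ala-CGC-2 base first), so only the last few bases of the fragments assigned them to this parent.

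Mapped reads numbered 1204173 to 2155977 per library. The 200 fragments held 75.7% to 76.0% of them in the controls, 56.0% to 62.1% at day 3 and 75.3% to 78.6% at day 7, and the 8 members held 0.0658% to 0.410% of the listed counts. A single count equalled 0.464 to 0.830 CPM, the count scaled to the mapped reads of its library. The highest level of each fragment over the 9 libraries was 20.1 CPM or more, and rarer alanine fragments were not analysed here. The scaling factors ranged from 0.749 to 1.14 and split the day 7 group, with 1.14 for replicate 1 and 0.783 and 0.749 for replicates 2 and 3.

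The Ala-CGC-5 fragments were far more abundant than those of Ala-CGC-2. Ala-CGC-5 held 91.3% ± 2.57 of the counts of the 8 fragments in control libraries, 92.2% ± 3.00 in day 3 libraries and 86.7% ± 5.38 in day 7 libraries (SD, n = 3). Most of this was the 30 nt fragment, which ranked 18 of the 200 by mean CPM over the 9 libraries, followed by the 31 nt fragment at rank 51. The most abundant Ala-CGC-2 fragment, of 31 nt, ranked 89. The remaining 5 ranked between 131 and 198, the last being the 30 nt Ala-CGC-2 fragment.

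**Figure D1:**
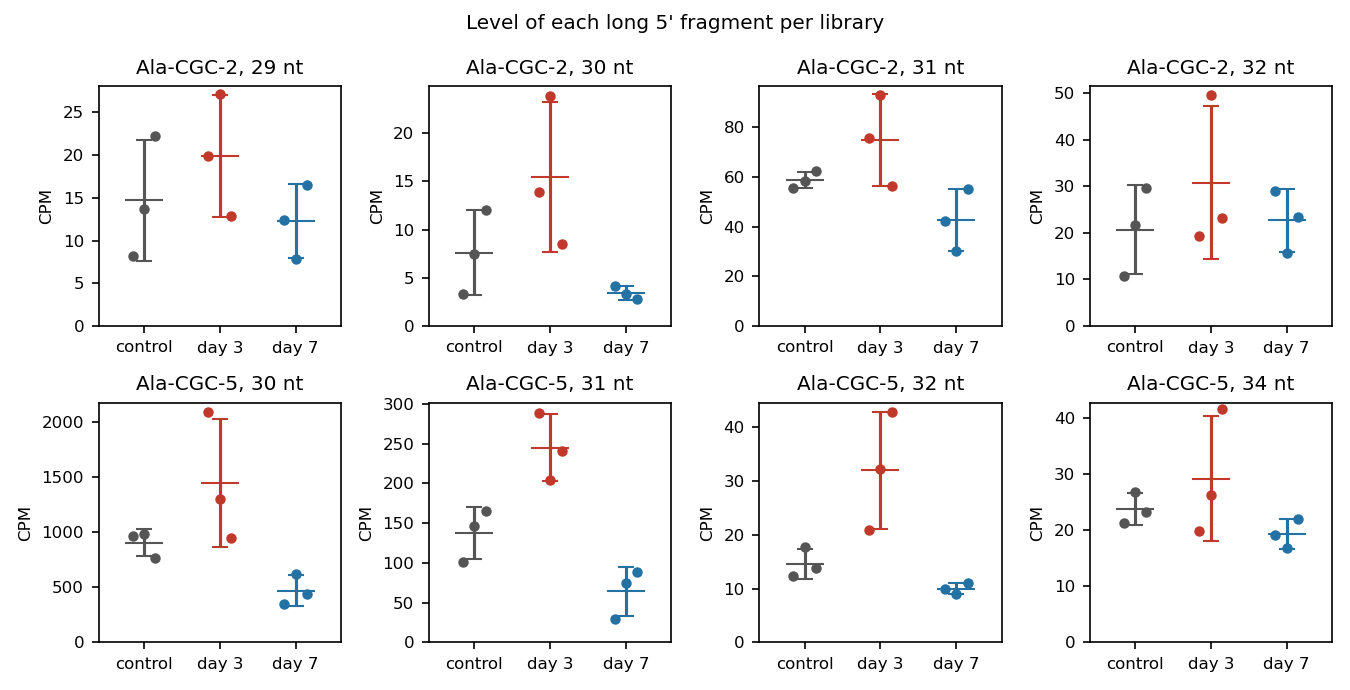
Level of each of the 8 long 5′ fragments in CPM (vertical axes, each starting at 0 with its own scale) in the control, day 3 and day 7 libraries. Points are libraries, horizontal bars group means and whiskers SD (n = 3). The 30, 31 and 32 nt fragments of Ala-CGC-5 were lower in all 3 day 7 libraries than in any day 3 or control library.

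The 30 nt Ala-CGC-5 fragment stood at 966, 984 and 764 CPM in control replicates 1 to 3, at 2087, 1303 and 947 CPM at day 3, and at 348, 618 and 443 CPM at day 7. The group means were 905 ± 122, 1446 ± 583 and 470 ± 137 CPM (SD, n = 3). All day 7 libraries lay below all others, while day 3 overlapped the controls through its replicate 3. Day 3 replicate 1 was the highest library.

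The 31 nt Ala-CGC-5 fragment was at 101, 147 and 165 CPM in the controls, at 289, 205 and 240 CPM at day 3, and at 29.9, 74.8 and 88.3 CPM at day 7. The groups did not overlap, day 3 being highest and day 7 lowest. The 32 nt fragment, at 12.3, 17.7 and 13.9 CPM in the controls, 20.9, 32.3 and 42.7 CPM at day 3 and 9.97, 8.93 and 11.0 CPM at day 7, showed the same order without overlap. The 34 nt fragment, the only tiRNA-5 among the members, ends on the first base of the anticodon. It was at 21.3, 26.9 and 23.2 CPM in the controls, 19.9, 26.2 and 41.5 CPM at day 3 and 19.1, 16.7 and 22.1 CPM at day 7, so that each group overlapped the others.

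The 31 nt Ala-CGC-2 fragment was at 55.6, 58.3 and 62.2 CPM in the controls, 75.5, 93.1 and 56.2 CPM at day 3 and 42.4, 30.1 and 55.2 CPM at day 7. The lowest control and the highest day 7 library were 55.6 and 55.2 CPM, so these groups were separated by less than 1 count. The 30 nt fragment was the rarest member, with 4, 13 and 26 counts in the controls (3.27, 7.43 and 12.1 CPM), 28, 51 and 14 at day 3 (13.9, 23.9 and 8.55 CPM) and 5, 6 and 4 at day 7 (4.15, 3.35 and 2.76 CPM). All its day 7 libraries were below all its day 3 libraries, and both overlapped the controls. The 29 nt fragment ranged over 7.81 to 27.1 CPM and the 32 nt fragment over 10.6 to 49.6 CPM in the 9 libraries, and for both every group overlapped every other.

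At day 3 after laser, none of the 8 fragments passed the test against the controls. With edgeR's quasi-likelihood test and Benjamini-Hochberg adjustment over the 200 fragments, 0 of 8 reached an adjusted p below 0.05, against 21.5% of all fragments in both directions. The 8 log2 fold changes were all above 0, from 0.25 to 1.08, with a median of 0.59 beside -0.04 for all fragments and 0.25 for the long 5′ fragments of other amino acids. At an unadjusted p below 0.05 there was 1 of 8, against 88 of all 200 fragments. It was the 32 nt Ala-CGC-5 fragment (log2 fold change 1.08, SE 0.399, edgeR adjusted p = 0.0526). The dominant 30 nt Ala-CGC-5 fragment gave 0.65 (SE 0.425, edgeR adjusted p = 0.241), the 31 nt one 0.81 (SE 0.433, adjusted p = 0.159) and the 30 nt Ala-CGC-2 fragment 0.97 (SE 0.571, adjusted p = 0.201). DESeq2 called the 32 nt Ala-CGC-5 fragment (log2 fold change 1.15, adjusted p = 0.0343), as did edgeR with relative log expression factors (1.15, adjusted p = 0.0351), with scaling to the listed counts (1.24, adjusted p = 0.0240), in a fit of these 2 groups only (1.01, adjusted p = 0.0363), and without day 3 replicate 1 (1.28, adjusted p = 0.0465), day 7 replicate 1 (1.08, adjusted p = 0.0439) or day 7 replicate 3 (1.08, adjusted p = 0.0377). The CPM of day 3 lay above the controls without overlap for 2 of 8, the 31 and 32 nt Ala-CGC-5 fragments, against 22.0% of all fragments, and below them for 0 of 8, against 19.5%.

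At day 7, no member passed against the controls either. With edgeR, 0 of 8 reached an adjusted p below 0.05, against 4.0% of all fragments (3.50% higher and 0.500% lower), 0 of 8 reached an unadjusted p below 0.05, against 38 of all 200, and DESeq2 called 0 of 8 and 15 of 200. For the 30 nt Ala-CGC-2 fragment DESeq2 gave no adjusted p (log2 fold change -1.04, DESeq2 unadjusted p = 0.136). The log2 fold changes ran from -0.91 to 0.38 with a median of -0.21, beside 0.09 for all fragments. The smallest p was that of the 31 nt Ala-CGC-5 fragment (log2 fold change -0.70, SE 0.439, edgeR adjusted p = 0.410). The 30 nt Ala-CGC-5 fragment gave -0.61 (SE 0.426, edgeR adjusted p = 0.458), the 32 nt one -0.25 (SE 0.429, adjusted p = 0.864) and the 30 nt Ala-CGC-2 fragment -0.91 (SE 0.674, adjusted p = 0.485). The signs of the 29 nt Ala-CGC-2 fragment (0.01) and of the 34 nt Ala-CGC-5 fragment (0.00) turned under other scalings, to -0.30 for both with mapped totals without TMM. The CPM of day 7 lay below the controls without overlap for 4 of 8, the 30, 31 and 32 nt Ala-CGC-5 fragments and the 31 nt Ala-CGC-2 fragment, against 12.0% of all fragments in that direction. CPM carry no scaling factor, and in the scaled edgeR fit these 4 gave -0.61, -0.70, -0.25 and -0.16.

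Between day 3 and day 7, 4 of the 8 fragments fell, 3 of Ala-CGC-5 and 1 of Ala-CGC-2. This compares with 34.5% of all fragments called in both directions and 11.5% called lower (edgeR, adjusted p below 0.05). All 8 log2 fold changes were below 0, with a median of -0.88 beside 0.15 for all fragments and -0.17 for the long 5′ fragments of other amino acids. Both this comparison and the one of day 3 with control use the same day 3 libraries, so a high day 3 library raises one and lowers the other.

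The 31 nt Ala-CGC-5 fragment fell by 1.51 on the log2 scale (SE 0.444, edgeR adjusted p = 0.0143). The 32 nt fragment fell by 1.33 (SE 0.415, edgeR adjusted p = 0.0194) and the dominant 30 nt fragment by 1.27 (SE 0.430, edgeR adjusted p = 0.0282). The rare 30 nt Ala-CGC-2 fragment fell by 1.87 (SE 0.644, edgeR adjusted p = 0.0300), on 4 to 6 counts per day 7 library. The others did not pass, with log2 fold changes of -0.39, -0.49 and -0.15 for the 29, 31 and 32 nt Ala-CGC-2 fragments and -0.25 for the 34 nt Ala-CGC-5 fragment. The CPM of day 7 lay below day 3 without overlap for 5 of 8, against 21.0% of all fragments, the fifth being the 31 nt Ala-CGC-2 fragment.

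**Figure D2:**
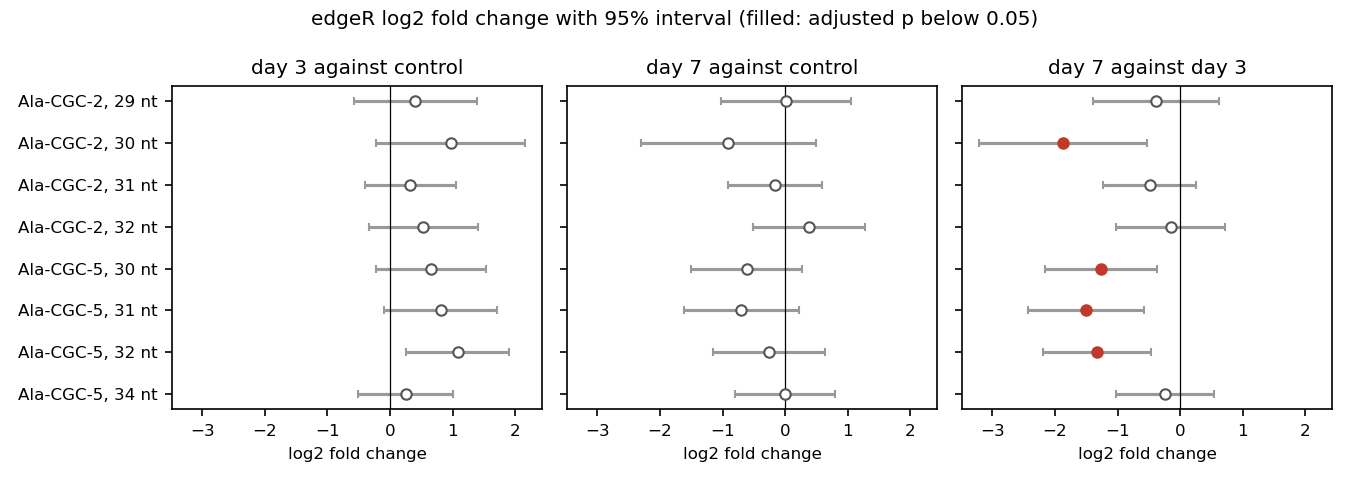
Log2 fold change (horizontal axes) of the 8 fragments in the 3 comparisons, from the edgeR fit of all 200 fragments, with 95% intervals. Filled points had an adjusted p below 0.05; these were the 30 nt Ala-CGC-2 fragment and the 30, 31 and 32 nt Ala-CGC-5 fragments at day 7 against day 3.

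Each of these 4 calls was lost when certain single libraries were left out, with the direction kept, and that of the 30 nt Ala-CGC-2 fragment also with limma-voom on all 9 libraries (-1.69, adjusted p = 0.0682). Without day 3 replicate 1 the 30 nt Ala-CGC-5 fragment gave -0.85 (edgeR adjusted p = 0.158), the 31 nt fragment -1.33 (0.0600) and the 30 nt Ala-CGC-2 fragment -1.91 (0.0570). Without day 7 replicate 1 the 30 nt Ala-CGC-5 fragment gave -0.97 (edgeR adjusted p = 0.1095), the 32 nt fragment -1.16 (0.0712) and the 30 nt Ala-CGC-2 fragment -1.83 (0.0959). The 32 nt Ala-CGC-5 fragment gave -1.11 (edgeR adjusted p = 0.0654) without day 3 replicate 3 and -1.32 (0.0511) without day 7 replicate 2, and the 30 nt fragment gave -1.30 (0.0579) without day 7 replicate 3. The 30 nt Ala-CGC-2 fragment gave -1.43 (edgeR adjusted p = 0.109) without day 3 replicate 2, -1.95 (0.0611) without day 7 replicate 2 and -1.84 (0.0596) without day 7 replicate 3. Without day 7 replicate 3 the 31 nt Ala-CGC-2 fragment passed at -0.87 (edgeR adjusted p = 0.0485).

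Fragments of a parent share their bases and were also summed. Summed over its 4 lengths, Ala-CGC-5 stood at 1101, 1176 and 966 CPM in the controls, 2416, 1567 and 1272 CPM at day 3 and 407, 719 and 564 CPM at day 7, with no overlap between the groups. For testing, long 5′ fragments were summed by parent and each other fragment stayed a row of its own, 131 rows in all. With edgeR, the Ala-CGC-5 sum fell by 1.67 on the log2 scale from day 3 to day 7 (SE 0.381, adjusted p = 0.00155). Of all rows, 36.6% were called. The fall held with each library left out, the log2 fold change lying between -1.95 and -1.18. The scaling factors were computed anew for these rows, so log2 fold changes of sums and of single fragments are not on the same scale. Without TMM, day 7 against day 3 gave -1.64 for the Ala-CGC-5 sum and -1.62 for its 30 nt fragment. Against the controls the Ala-CGC-5 sum gave 0.91 at day 3 (SE 0.374, edgeR adjusted p = 0.0518, 36.6% of rows called). Without day 3 replicate 1 it gave 0.51 (edgeR adjusted p = 0.309). It was past the threshold at 1.14, 1.21 and 0.96 without control replicate 1, day 3 replicate 3 or day 7 replicate 1. At day 7 against the controls it gave -0.75 (SE 0.374, edgeR adjusted p = 0.408, 0.763% of rows called).

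The Ala-CGC-2 sum was smaller and less separated. It stood at 77.7, 101 and 126 CPM in the controls, 129, 194 and 101 CPM at day 3 and 88.0, 56.9 and 97.9 CPM at day 7. Day 7 lay just below day 3, and the controls overlapped both. The edgeR log2 fold changes were 0.72 at day 3 (SE 0.383, adjusted p = 0.126), -0.20 at day 7 (SE 0.386, adjusted p = 0.856) and -0.93 for day 7 against day 3 (SE 0.386, adjusted p = 0.0560). Without day 7 replicate 3 the last was -1.17 (edgeR adjusted p = 0.0283). The Ala-CGC-5 to Ala-CGC-2 count ratio was 11.2 ± 3.29, 13.2 ± 5.36 and 7.67 ± 4.33 in control, day 3 and day 7 libraries, and the groups overlapped in each comparison (two-sided exact permutation p = 0.2 for day 7 against day 3, n = 3).

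The 3′ ends of the parents' fragments lay at different distances from the anticodon. In the controls the 30 nt fragment, whose last base lies 4 bases before the first anticodon base, held 83.5% ± 4.34 of the Ala-CGC-5 counts (SD, n = 3), and it held 81.3% ± 6.16 at day 3 and 83.3% ± 4.21 at day 7. For Ala-CGC-2 the 31 nt fragment, ending 2 bases before that point, held 59.5% ± 11.3, 54.2% ± 5.48 and 52.5% ± 4.13. Of the 16 nuclear parents with at least 3 long 5′ fragments, the most abundant control fragment ended 2 bases before the anticodon's first base in 8, on it in 5, 3 before it in 2 and 4 before it in 1, which was Ala-CGC-5.

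The close glutamate relatives ended nearer the anticodon than Ala-CGC-5. Glu-CTC-2 peaked at 31 nt, with 59.5% of its control counts, and Glu-TTC-3 at 34 nt, with 75.2%. Weighted by counts, Ala-CGC-5 fragments ended 3.73 bases before the anticodon's first base on average over the 9 libraries, with a range of 3.61 to 3.83. The mean was 2.32 for Glu-CTC-2 (range 1.13 to 2.82), 0.607 for Glu-TTC-3 (0.132 to 0.995) and 2.13 for Ala-CGC-2 (2.00 to 2.27). The distance was larger for Ala-CGC-5 in 9 of 9 libraries in each comparison, by 1.41 ± 0.456, 3.12 ± 0.314 and 1.60 ± 0.0867 bases (SD, n = 9; exact paired permutation p = 0.00391 in each, the smallest that 9 pairs can give, 0.00391 after adjustment over the 3 tests). This measure was chosen after the end positions had been seen, so its p-values add no independent evidence, and the libraries span 3 conditions. The distances cover listed lengths only, as rarer lengths are missing.

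**Figure D3:**
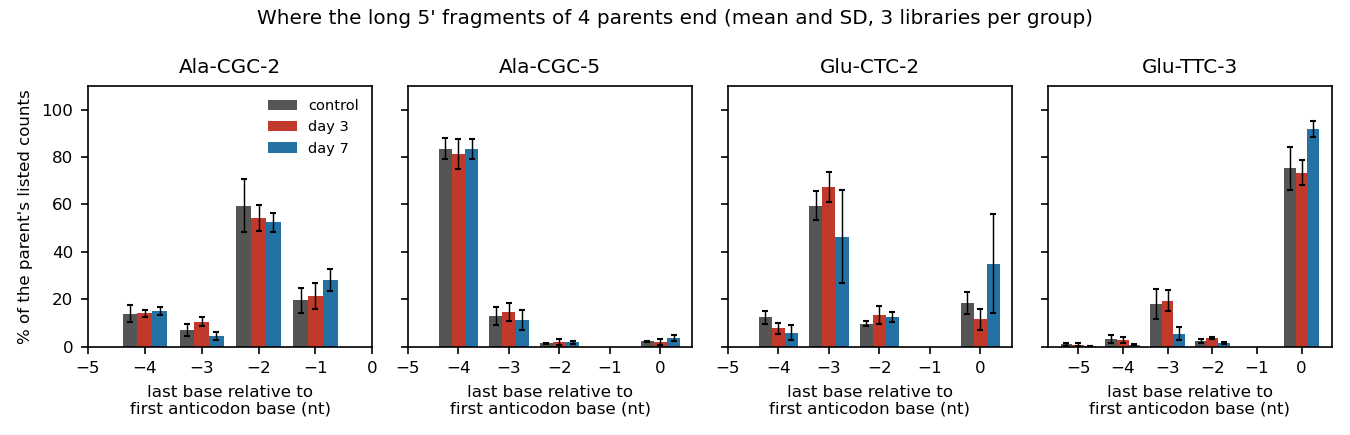
Percent of a parent's listed long 5′ counts (vertical axis) that ended at each position relative to the first anticodon base (horizontal axes, in nt, 0 being that base) for 4 parents. Bars are means of 3 libraries per group and whiskers SD. By group means, Ala-CGC-5 peaked at -4 in all groups, Ala-CGC-2 at -2, Glu-CTC-2 at -3 and Glu-TTC-3 at 0. For Glu-CTC-2 at day 7 these means were 46.4% ± 19.7 at -3 and 35.1% ± 20.9 at 0. Its day 7 replicate 1 had 27 counts at -3 and 66 at 0.

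Because the 3 parents differ in length profile, the count ratio of Ala-CGC-5 to a relative depended on length. Per count of Glu-TTC-3, Ala-CGC-5 had 23.8 ± 11.4 counts at 30 nt in the controls, 0.568 ± 0.102 at 31 nt, 0.455 ± 0.0448 at 32 nt and 0.0245 ± 0.0103 at 34 nt (SD, n = 3). Per count of Glu-CTC-2 the ratios were 37.4 ± 18.8, 1.08 ± 0.168, 0.703 ± 0.103 and 0.642 ± 0.230 at the same lengths. The 30 nt Ala-CGC-5 fragment was thus more abundant than the 30 nt fragment of either relative in each of the 9 libraries, and the 32 nt fragment was less abundant on average.

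Across conditions these ratios moved little beside the difference between 30 nt and the other lengths. The 30 nt ratio to Glu-TTC-3 was 25.1, 20.6 and 18.5 at day 3 and 26.2, 34.6 and 29.2 at day 7, and the 32 nt ratio was 0.355 ± 0.0355 at day 3 and 0.347 ± 0.0155 at day 7 (SD, n = 3). The 32 nt ratio lay below the controls without overlap at both times, and the 30 nt ratio was higher at day 7 than at day 3 without overlap. The 30 nt ratio to Glu-CTC-2 was 43.6 ± 7.47 at day 3 and 73.1 ± 28.3 at day 7, without overlap between these 2 groups. It rested on as few as 4 glutamate counts in a day 7 library. The 31 nt ratio to Glu-CTC-2 was 0.854 ± 0.00606 at day 3, below both the controls and day 7 (1.14 ± 0.166) without overlap. The 32 nt ratio to Glu-CTC-2 was 0.559 ± 0.0425 at day 3, below the controls without overlap. All other comparisons of the ratios to these relatives overlapped. Over 11 ratios and 33 two-sided exact permutation tests, no adjusted p was below 0.412. With 3 libraries against 3 the exact p cannot be below 0.1, and 8 of the 33 tests gave that value. The relatives' own log2 fold changes from day 3 to day 7 were, in the edgeR fit, -1.75, -1.79 and -1.27 for the 30, 31 and 32 nt fragments of Glu-TTC-3 and -1.72, -1.83 and -1.53 for those of Glu-CTC-2, all 6 past the threshold, and 0.30 and -0.04 for their 34 nt fragments, which did not pass.

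Within Ala-CGC-5, the 34 nt fragment was the one of the 4 lengths with the smallest log2 fold change from day 3 to day 7. The count ratio of the 30 nt to the 34 nt fragment was 45.5, 36.6 and 32.9 in the controls, 105, 49.8 and 22.8 at day 3 and 18.2, 36.9 and 20.1 at day 7. The groups overlapped, and the day 7 mean of 25.1 ± 10.3 did not differ from the day 3 mean of 59.2 ± 41.9 beyond this spread (two-sided exact permutation p = 0.2, n = 3). A difference in fall between the shorter fragments and the 34 nt fragment was thus not shown.

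The share of a parent's counts in fragments of 32 nt or more was compared as a measure that needs no library scaling. For Ala-CGC-2 it was 13.7%, 21.5% and 23.5% in the controls, 15.1%, 25.6% and 23.0% at day 3 and 33.02%, 27.5% and 23.9% at day 7. Day 7 lay above the controls without overlap, by 8.58 percentage points between the means, with an exact permutation p of 0.1 and 0.6 after adjustment over 6 tests. The gap between the highest control and the lowest day 7 library was within the 95% exact binomial intervals of both, 18.6% to 29.0% and 17.2% to 31.8%, which cover counting error only. For Ala-CGC-5 the share was 3.56% ± 0.447, 4.01% ± 2.48 and 5.53% ± 1.81 (SD, n = 3), and all groups overlapped.

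The other nuclear alanine fragments fell into 4 short 5′ and 5 3′ fragments, which end in the mature CCA. None of the 9 matched Ala-CGC-5, while 3 of the short 5′ and 2 of the 3′ fragments matched Ala-CGC-2 among other genes. At day 3, 4 of the 5 3′ fragments fell (11.5% of all fragments were called lower, edgeR), with a median log2 fold change of -1.64 over the 5. At day 7 against day 3, 3 of the 5 rose (23.0% called higher), with a median of 1.34. Of the short 5′ fragments, 1 rose at day 3 (10% called higher) and fell from day 3 to day 7, the 16 nt fragment tRF-1:16-Ala-CGC-3-M3, with log2 fold changes of 2.12 (SE 0.632, edgeR adjusted p = 0.0195) and -1.97 (SE 0.654, edgeR adjusted p = 0.0252). The 4 short 5′ fragments had a median of 0.90 at day 3, next to 0.59 for the 8 long ones.

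The summed 3′ fragments stood at 313, 321 and 378 CPM in the controls, 94.9, 96.3 and 173 CPM at day 3 and 433, 263 and 121 CPM at day 7. Day 3 lay below the controls without overlap, while day 7 ranged from above them to within the day 3 values. Per count of these 3′ fragments, the Ala-CGC-2 fragments had 0.248, 0.316 and 0.334 counts in the controls, 1.36, 2.01 and 0.583 at day 3 and 0.203, 0.216 and 0.811 at day 7. Only 2 of the 5 3′ fragments matched Ala-CGC-2, and those among other genes, so the ratio is not a 5′ to 3′ balance of a single tRNA. The ratio was higher in all 3 day 3 libraries than in any control, with an exact permutation p of 0.1, the smallest possible, and day 7 overlapped both groups (exact permutation p = 1 against the controls and 0.2 against day 3, n = 3).

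**Figure D4:**
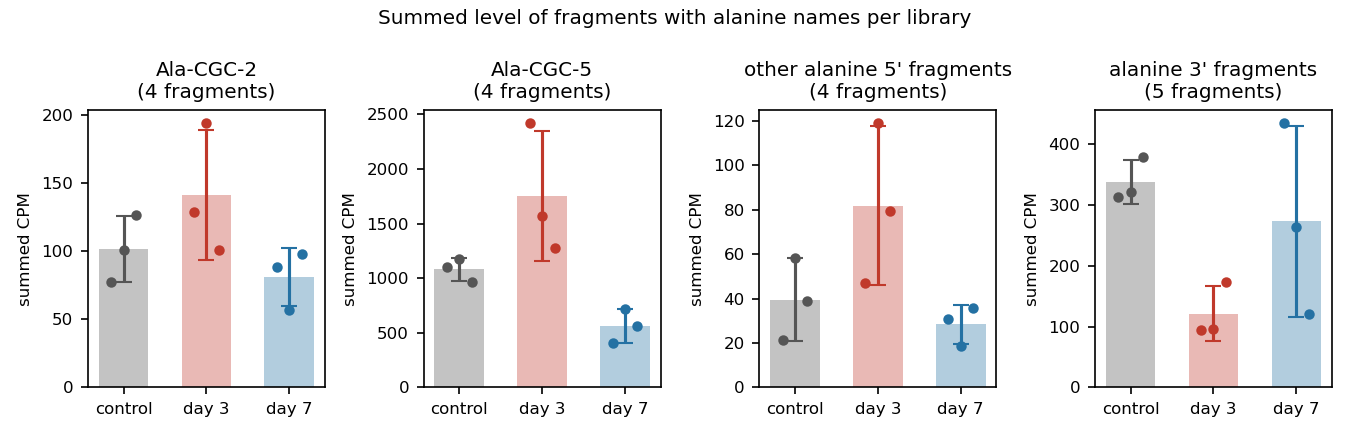
Summed CPM (vertical axes, each starting at 0) of the Ala-CGC-2 and Ala-CGC-5 long 5′ fragments, the other alanine 5′ fragments and the alanine 3′ fragments. Bars are group means, whiskers SD (n = 3) and points libraries. At day 3 the 5′ sums had their highest means and the 3′ sum its lowest, 121 CPM beside 337 CPM in the controls.

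The fragments of other amino acids whose levels over the 9 libraries were most like the sum of the 8 members were found by the root mean square difference of centred log2 CPM, over 183 candidates. They were tRF-1:31-Val-AAC-1-M2 (0.295), tRF-1:30-Glu-TTC-3 (0.342), tRF-1:32-Val-AAC-2-M3 (0.364), tRF-1:32-Val-AAC-5 (0.373) and tRF-1:30-Gly-GCC-1 (0.373), beside a median of 0.887 log2 units. All 5 are long 5′ fragments. The sum is mostly Ala-CGC-5, and the Ala-CGC-2 and Ala-CGC-5 sums differed from each other by 0.618. For Ala-CGC-2 alone the nearest were 2 long fragments, tRF-1:32-Lys-TTT-1 (0.345) and tRF-1:28-Gly-GCC-2-M3 (0.361), and 3 short leucine fragments of 16 nt, tRF-1:16-Leu-AAG-1-M2 (0.382), tRF-1:16-Leu-TAG-3 (0.383) and tRF-1:16-Leu-CAA-1-M5 (0.390), beside a median of 0.692. These likenesses are descriptions over libraries that share depth and scaling, and no test was made.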

How the data were processed

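The authors deposited read counts and CPM for each fragment and library, per the file headers. The tools in the submitters' processing notes are FastQC, Bowtie and edgeR, with neither role nor version given, and the build there is mm10. Per the labels' protocols, RNA was pretreated to remove bound amino acids, end modifications and m1A and m3C before adapter ligation, and products of 134 to 160 bp were taken from a gel, so other lengths are under-represented. The 7 empty lines of the table were not used.

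Counts were tested with edgeR 4.0.16 (R 4.3.3): library size was the mapped total (count divided by CPM), TMM factors and 1 mean per group were fitted to all 9 libraries (BCV 34.9%), and filterByExpr removed 0 of 200 fragments. Quasi-likelihood F tests were two-sided, and a fragment passed at a Benjamini-Hochberg p, adjusted over all 200, below 0.05. Parent sums were fitted likewise, with TMM factors and adjustment from their own 131 rows. Shares and ratios were compared by exact permutation. Alternatives used DESeq2 1.42.0, limma 3.58.1 (voom), other scalings, filters and thresholds, 2-group fits, a replicate block and each library left out. The code was tested on simulated data.

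Full test values are given for the members past the threshold in any comparison, the most abundant one and the one with the smallest p per comparison. Members and lists were chosen with earlier results of these data known. Whether the complexes of a group came from different animals is not stated in the labels. The p-values therefore measure the spread among these samples alone, and part or all of it could be technical.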

Additional observations from a re-analysis of the deposited data

Results flagged for a closer look

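Levels at the 2 times after laser differed for 4 fragments and 1 parent sum, by the test of day 7 against day 3, which compares the 2 effects directly since both share the controls. With edgeR, tRF-1:30-Ala-CGC-2 gave a log2 fold change of -1.87 (adjusted p = 0.0300), tRF-1:30-Ala-CGC-5 of -1.27 (adjusted p = 0.0282), tRF-1:31-Ala-CGC-5 of -1.51 (adjusted p = 0.0143) and tRF-1:32-Ala-CGC-5 of -1.33 (adjusted p = 0.0194). The summed Ala-CGC-5 fragments gave -1.67 (edgeR adjusted p = 0.00155).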

How the results depend on the processing

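The Ala-CGC-5 sum at day 7 against day 3 kept its direction and its call in all 16 alternatives, from -1.95 to -1.18. The number of members called at day 7 against day 3 was 1 to 4 with a library left out: 1 without day 3 replicate 1 (45 of all 200 fragments called), 1 without day 7 replicate 1 (44) and 2 without day 7 replicate 2 (54), beside 69 of 200 with all libraries. A minimum mean of 100 CPM kept 2 members, and both were called (2), as were 31 of all 70 kept. At day 3 it was 0 to 1 with a library left out (22 to 59 of all 200), and 1 with RLE factors (49 of all 200 called), scaling to the listed counts (55 of 200), DESeq2 (58 of 200), only the 2 groups (67 of 197) or an adjusted p below 0.1 (83 of 200), beside 43 of 200; at day 7 against control it was 0 throughout. Replicate numbers were not treated as pairs, since the labels state no pairing. In 2 of the 9 pairs with the same number the correlation exceeded 0.1, the highest being 0.321 for replicate 2 of control and day 3. Pairs with different numbers were not compared, so this cannot exclude pairing. With a replicate block 0, 0 and 3 members and 47, 8 and 64 of all 200 fragments were called, the 30 nt Ala-CGC-5 fragment giving -1.21 at day 7 against day 3 (adjusted p = 0.0548). The cause of these changes was not tested.

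The Ala-CGC-5 sum at day 3 passed with scaling to the listed counts (0.98), DESeq2 (0.99), only the 2 groups (0.91) and the replicate block (0.88), and, past the threshold in 3 of them, ranged from 0.51 to 1.21 with a library left out. With a library left out the Ala-CGC-2 sum ranged from -0.44 to 0.065 at day 7 and from -1.17 to -0.47 at day 7 against day 3. Without TMM the median log2 fold change of all fragments moved from 0.09 to -0.17 at day 7 and from 0.15 to -0.12 at day 7 against day 3. At day 7 the 29 nt Ala-CGC-2 fragment turned to -0.14 (RLE), -0.30 (no TMM), -0.11 (listed counts), -0.14 (DESeq2), -0.10 (limma-voom), -0.071 (only the 2 groups) and -0.27 (without Gly-GCC fragments), and ranged from -0.42 to 0.43 with a library left out. For the 34 nt Ala-CGC-5 fragment the same settings gave -0.14, -0.30, -0.12, -0.15, -0.043, -0.086 and -0.25, the replicate block gave -0.026, and left-out libraries -0.23 to 0.18. With a library left out, signs also turned for the 34 nt fragment at day 3 (-0.049 to 0.43) and at day 7 against day 3 (-0.48 to 0.0499), the 31 nt Ala-CGC-2 fragment at day 7 (-0.55 to 0.0083) and the 32 nt one at day 7 against day 3 (-0.37 to 0.37).

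The day 3 share of long fragments turned to -3.65 percentage points for Ala-CGC-2 at 31 nt or more and to -0.286 for Ala-CGC-5 at 33 nt or more, and with a library left out ranged from -1.27 to 4.76 and from -0.850 to 1.62. For day 7 against day 3, Ala-CGC-5 gave -1.996 at 31 nt or more. No Ala-CGC-2 fragment reached 33 nt, so that alternative gave no value. Counts of 4 to 6 per day 7 library limit the 30 nt Ala-CGC-2 fragment.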
